A study of Rattus norvegicus with 8 samples.

Results

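The immunoglobulin probes described here are 6 features of a rat whole-genome array, with the GenBank identifiers M87784, Z93368, L22655, AJ250889, L17078 and M87788, out of 43379 features that are not controls. They were selected on their ratio of lavender oil (LO) to control in the small intestine: the dye ratio Cy5/Cy3 was at least 1.5 on the array of one dye orientation and at most 0.75 on the array of the opposite one. Their LO/control values in that tissue are therefore given as a description, with no test. The supplementary gene lists of the study describe M87784 as a kappa chain with variable and constant regions from the hybridoma YTH906, and L22655 as the kappa chain of an antibody to the acetylcholine receptor. AJ250889 is the light chain variable region of the antibody mAb192, Z93368 the variable region of clone ERF2.67, and L17078 the light chain variable region (Igkv28) of an antibody that binds nerve growth factor. M87788 is a light chain of a YFC cell line. At least 5 of the 6 entries are thus light chains, and the entries come from single hybridomas or clones.

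Immunoglobulins are made by B cells and secreted in quantity by plasma cells. Each of these cells carries rearranged variable gene segments, and the resulting variable region is joined to a constant region. Each antibody pairs heavy chains with kappa or lambda light chains. A probe for a variable region can therefore bind messages from those clones that used a related segment, whereas a probe for a constant region binds messages from all clones of that class. Plasma cells of the intestinal lamina propria secrete mainly dimeric IgA, which epithelial cells carry into the lumen with the polymeric immunoglobulin receptor (Pigr). The spleen holds B cell follicles and plasma cells, and the liver has few of either. Which stretch of each message the array probe covers is not given in the sources used here, and related segments may share a probe.

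All rats were male and 7 weeks old, with 6 in the control group and 6 in the LO group. Control rats received 10% ethanol into the stomach, and LO rats received the oil of *Lavandula angustifolia* at 5 mg/kg in the same diluent, once a day for 13 days, with dissection on day 14. The strain is given as Wistar in the sample characteristics and as F334 (Fischer) in the growth protocol and the methods. Small intestine was taken some distance from the duodenum and rinsed with saline, and RNA was pooled within each group before labelling. The 8 arrays comprised 2 for the small intestine, 2 for the spleen and 4 for the liver, which came from 2 pairs of pools (liver pool 1 and liver pool 2). On every array a control pool and an LO pool were hybridized together, with LO in Cy5 on replicate 1 and in Cy3 on replicate 2. The 2 arrays of a pair hold the same RNA, so an SD between them is a technical error. Only the liver had more than 1 pool pair, so the p-values for LO/control rest on the spread between the liver pools. Those for levels also rest on how far LO/control differed between tissues. Each tissue lay on a slide of its own, and tissue and slide cannot be told apart.

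On single arrays, 44.3% to 64.7% of features exceeded background clearly enough in Cy3 and in Cy5 to carry the software's mark, called well above background here. Tissue identity was checked against marker genes, on levels after normalization between arrays. Of the enterocyte markers 5 of 5 measured were highest in the small intestine. Of the hepatocyte markers 6 of 7 were highest in the liver, with *Apoa1* the exception, and of the spleen markers 3 of 3 in the spleen. Before that normalization the control signals of the enterocyte marker *Fabp1* were 96216 and 139007 in the small intestine and 157400 to 243120 in the liver. Pancreatic enzyme genes, 6 of 6, were highest in the small intestine, each in all 4 channels there. The 6 immunoglobulin probes were well above background in all 4 channels of the small intestine and all 4 of the spleen, and in 0 of 8 channels of the liver. None of their spots was saturated.

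In the small intestine 4 of the 6 probes gave more signal in the LO pool than in the control pool, and 2 gave less. The geometric mean LO/control ratio was 2.15 for L22655, 1.96 for M87784, 1.83 for AJ250889 and 1.75 for Z93368, against 0.602 for L17078 and 0.566 for M87788. The probe for L22655, the kappa chain, gave signals of 2111 in the control pool and 4422 in the LO pool on replicate 1, and of 1840 and 4052 on replicate 2 (background-subtracted, dye-normalized intensity units). Its LO/control ratios were 2.09 and 2.20, and both LO signals lay above both control signals. M87784, the kappa chain with a constant region, went from 282 to 606 on replicate 1 and from 254 to 452 on replicate 2, ratios of 2.15 and 1.78. AJ250889 went from 362 to 684 and from 321 to 566, and its ratios of 1.89 and 1.76 differed little between the dye orientations. The dimmest of these spots, Z93368, went from 118 to 207 and from 104 to 181, with ratios of 1.76 and 1.74. For each of these 4 probes the control and LO signals did not overlap between the arrays, which the selection on both ratios largely fixed. The share of all features without such overlap was not counted.

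The remaining 2 light chain probes ran the other way. L17078, the Igkv28 variable region, fell from 1851 to 1192 on replicate 1 and from 1585 to 892 on replicate 2, which gave ratios of 0.644 and 0.563. M87788 gave 420 in the control and 229 in the LO pool on replicate 1, and 338 and 198 on replicate 2, with ratios of 0.547 and 0.585. Here too the lower control signal lay above the higher LO signal, again largely by selection. The entries described as kappa chains, L22655 and M87784, were on the higher side, while M87788, described only as a light chain, was on the lower. Among the variable regions, AJ250889 and Z93368 were higher and L17078 was lower. The probes were selected on these ratios and the stretch each covers is not known, so a link between region and direction was not tested.

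**Figure D1:**
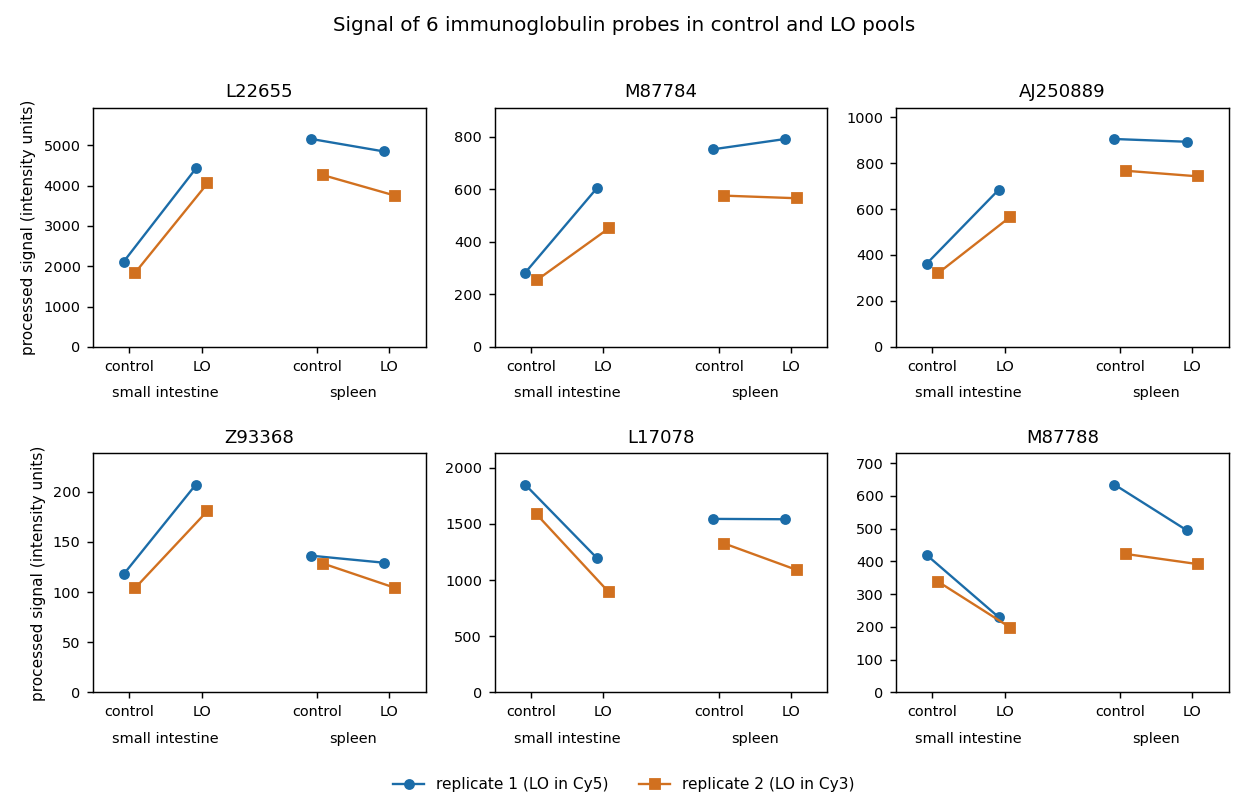
Processed signal (linear intensity units) of each of the 6 probes in the control and LO pools of the small intestine and spleen, with a line for each array (circles, replicate 1 with LO in Cy5; squares, replicate 2 with LO in Cy3). In the small intestine both lines rise for L22655, M87784, AJ250889 and Z93368 and fall for L17078 and M87788, whereas in the spleen they are close to flat or fall slightly.

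On the log2 scale, L22655 averaged 1.103 ± 0.05 in the small intestine (LO/control, SD over the 2 arrays of 1 pool pair), and M87784 0.97 ± 0.19. AJ250889 averaged 0.87 ± 0.07 and Z93368 0.81 ± 0.01. The lowered probes stood at -0.73 ± 0.14 (L17078) and -0.82 ± 0.07 (M87788). The selection used these values. Over all features, 309 of 43345 (0.713%) passed the same fold on both small intestine arrays, 156 upward and 153 downward. Few of those were bright. Of the 24394 features with all 4 of their channels well above background, 8 (0.0328%) passed, and the 6 immunoglobulin probes made up all but 2 of them. The others were AF220555, with log2 values of 0.65 and 0.44, and NM_001013945, with -0.44 and -0.70, neither of them on the immunoglobulin list and both named after their values were seen. Of these bright features 95% lay between -0.20 and 0.20 in mean log2 LO/control, and their SD was 0.10. With the background modelled by normexp (offset 50), which draws ratios toward 1 by construction, 3 of the 6 (AJ250889, L17078 and L22655) still passed the fold, out of 3 features in all, and Z93368 went from 0.81 to 0.44 and M87784 from 0.97 to 0.63.

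In terms of LO/control, the fold asked for at least 1.5 or at most 0.75 on replicate 1, and for at least 1.33 or at most 0.667 on replicate 2. On a single array, the member nearest to an upper limit was Z93368, with 1.76 and 1.74. Nearest to a lower limit was M87788, with 0.547 and 0.585, followed by L17078, with 0.644 and 0.563. Just outside the lower limit lay the unnamed probe Z93359, with 0.737 on replicate 1 and 0.680 on replicate 2, where it missed by a small margin. XM_345745, similar to a gamma-2a heavy chain, had 0.662 and 0.803, and the unnamed probe Z93363 had 0.665 and 0.890. On the upper side, AF217598 had 1.26 and 1.35, and missed on replicate 1.

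Signal in a whole-tissue pool does not separate cell number from message per cell: a different number of plasma cells or B cells and a different amount of RNA in each cannot be told apart. Few cell markers could be set beside the probes, because 12721 of the 43379 features had a gene symbol through a RefSeq accession, and *Jchain*, *Cd79a*, *Ms4a1*, *Xbp1*, *Prdm1*, *Tnfrsf17* and *Derl3* were not matched. Of a list of 36 B cell and plasma cell genes 15 were measured. None of them passed the fold in any tissue and limma called none at an adjusted p of 0.05, against 0.713%, 0.551%, 0.81% and 1.25% of all features past the fold in the small intestine, spleen and both liver pools and 0 probes called by limma over the whole array, so a count of 0 in 15 does not set these genes apart.

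Among the plasma cell genes in the small intestine, *Mzb1*, a chaperone cofactor of antibody-secreting cells, gave signals of 475 in the control and 441 in the LO pool on replicate 1, and 372 and 395 on replicate 2. The log2 LO/control of *Mzb1* averaged -0.01 ± 0.14 (SD over 2 arrays). *Sdc1* (syndecan 1, also made by epithelium) stood at -0.04 ± 0.14. Both genes changed sign between the arrays. These are 2 of the 7 listed plasma cell markers, and their summed signal was 10573 and 9687 in the control channels against 10978 and 8883 in the LO channels. Most of that sum was *Sdc1*, with 10099 and 9315 in the control channels. *Pigr*, the receptor that carries IgA across the epithelium, gave 3117 and 2793 in the control and 2999 and 2458 in the LO channels, a mean log2 of -0.12 ± 0.09.

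Of the B cell and follicle markers 3 of 8 were measured. *Cd79b*, a chain of the B cell receptor complex, gave 241 and 201 in the control and 218 and 187 in the LO channels of the small intestine, a log2 of -0.12 ± 0.03. *Cxcl13*, the chemokine of B cell follicles, stood at 0.01 ± 0.09, and *Cxcr5*, its receptor, at 0.16 ± 1.11 on dim spots. The summed signal of the 3 was 1369 and 1152 in the control and 1393 and 1117 in the LO channels. Most of it was *Cxcl13*, with 1096 and 937 in the control channels. Over the 15 B cell and plasma cell genes, the median log2 was -0.01, and 1 was higher and 2 were lower on both arrays. Of all bright features 15.2% were higher and 13.7% lower on both arrays, and their median was 0.00. The cytokines *Il5* and *Il6* were not well above background in the small intestine, while *Tgfb1* (0.02 ± 0.26), the APRIL gene *Tnfsf13* (-0.09 ± 0.14) and the chemokine *Ccl28* (0.04 ± 0.25), which attracts IgA plasma cells, were measured there.

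Markers of other cell types were followed in the same tissue. The 6 pancreatic enzyme genes had a median log2 LO/control of -0.18, with *Amy2a3* the lowest at -0.43 ± 0.07. On both arrays 3 of 6 were lower, against 13.7% of all bright features. Their summed signal was 643709 and 552637 in the control against 602529 and 429216 in the LO channels. For 6 of 8 T cell markers the median was 0.06, with sums of 16720 and 15051 in the control and 18259 and 15156 in the LO channels, and *Cd2* and *Cd4* were not well above background. The 5 measured enterocyte markers of 8 had a median of -0.04, with sums of 489536 and 572546 in the control and 675729 and 370702 in the LO channels. The erythroid genes *Hbb* and *Alas2* were higher with LO on both arrays, at 0.29 ± 0.23 and 0.29 ± 0.10, and the 2 measured smooth muscle markers of 4 had a median of 0.04. The part of these cell types in the immunoglobulin values was not tested.

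In the spleen the same 6 probes showed little difference between the pools, mostly on the low side. L22655 gave 5153 in the control and 4845 in the LO pool on replicate 1, and 4257 and 3748 on replicate 2. M87784 gave 752 and 792, then 576 and 566, the only member whose direction changed with the dyes. AJ250889 gave 905 and 893, then 766 and 742. For L22655 and AJ250889 LO was the lower signal on each array, by a margin smaller than the gap between the arrays. Z93368 gave 136 and 129, then 128 and 104. L17078 gave 1545 and 1542, then 1325 and 1091. M87788 gave 634 and 495 on replicate 1, and 422 and 391 on replicate 2. Its mean log2 decrease was the largest of the 6, and for all 6 the control and LO signals overlapped across the arrays.

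Averaged over the 2 spleen arrays, log2 LO/control was -0.14 ± 0.07 (SD) for L22655, 0.02 ± 0.07 for M87784, -0.03 ± 0.02 for AJ250889 and -0.19 ± 0.16 for Z93368. It was -0.14 ± 0.20 for L17078 and -0.23 ± 0.17 for M87788. None of the 6 passed the fold, as against 239 of all features (0.551%). On both arrays 5 of 6 were lower with LO, all but M87784, and 18.3% of the 24326 bright spleen features were. The median of the 6 was -0.14, and that of all bright features -0.01. In limma, 0 of 6 passed the adjusted p of 0.05, with adjusted p-values of 1.0, and 0 of 29399 probes (0.0%) did, while 1110 had an unadjusted p under 0.05. Normexp gave 108 calls over all probes and 0 among the 6. The standard error of 0.12 rests on the spread between the liver pools over all probes, since the spleen had a single pool pair and these probes no residual degree of freedom of their own. The 95% intervals ran from -0.68 to 0.41 for L22655, from -0.52 to 0.57 for M87784, from -0.58 to 0.51 for AJ250889 and from -0.73 to 0.36 for Z93368. They ran from -0.69 to 0.40 for L17078 and from -0.78 to 0.31 for M87788.

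Marker genes were followed in the spleen as well. Of the measured plasma cell genes both were lower with LO on both arrays, *Mzb1* at -0.21 ± 0.12, from 3234 and 2559 in the control to 2648 and 2348 in the LO channels, and *Sdc1* at -0.07 ± 0.02. *Cd79b* was at -0.01 ± 0.12 and *Cxcr5* at -0.12 ± 0.07. Over the 15 B cell and plasma cell genes the median was -0.04, with 6 lower and 0 higher on both arrays. For comparison, 4455 (18.3%) of the 24326 bright spleen features were lower and 3894 were higher on both arrays. Of the hepatocyte genes 5 of 7 were higher on both spleen arrays with a median of 0.49 (*Alb*, at 0.55, passed the fold), at summed signals of 310 and 282 in the control and 491 and 355 in the LO channels, and the erythroid genes *Alas2* and *Hbb* stood at 0.23 and 0.29. Their part in the immunoglobulin values was not tested.

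**Figure D2:**
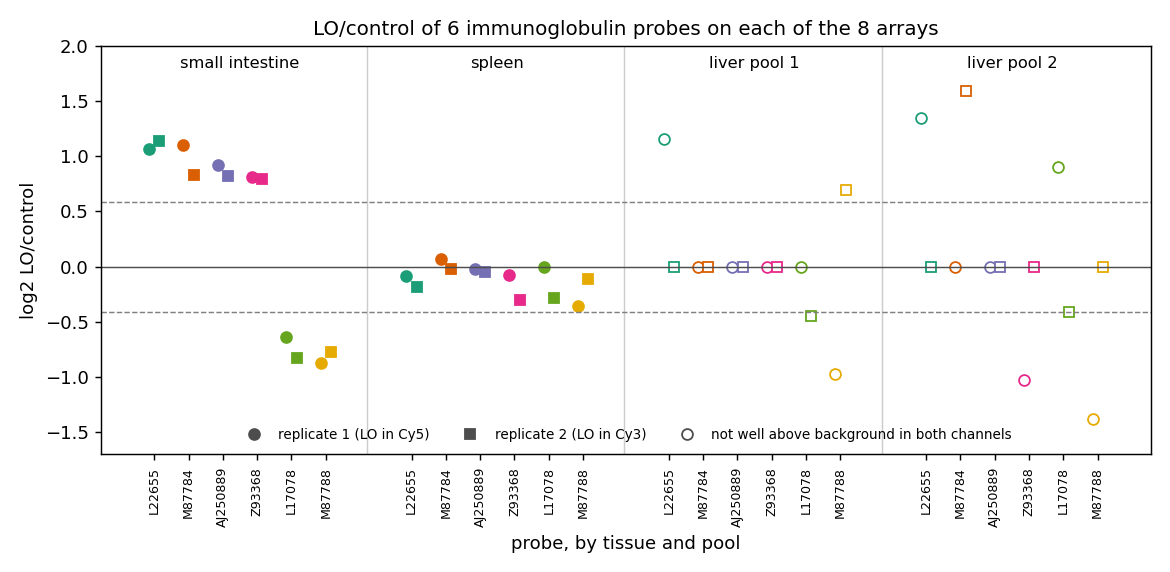
Log2 LO/control of the 6 probes on each of the 8 arrays, by tissue and pool (circles, LO in Cy5; squares, LO in Cy3; open symbols, not well above background in both channels), with dashed lines at ratios of 1.5 and 0.75, the limits for replicate 1. The small intestine values lie outside the dashed lines on both arrays, the spleen values lie between them, and all liver symbols are open, many of them exactly at 0.

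The liver gave no measured level for any of the 6 probes. Signals there were between 5.09 for AJ250889 and 20.6 for M87784, not well above background in any channel. The deposited ratio was exactly 1 on many liver arrays, as on 2 arrays of liver pool 1 for M87784, Z93368 and AJ250889. None of the 6 passed the fold in liver pool 1 or in liver pool 2, where 0.81% and 1.25% of all features did. Some single arrays gave large ratios, such as 3.01 for M87784 on replicate 2 of pool 2 and 2.55 for L22655 on replicate 1 of that pool, and the opposite dye orientation gave 1 in both cases. Limma could be fitted for L17078 and M87788, on 1 liver pool pair each, and called neither of them (adjusted p of 0.798 and 0.874). Over all probes it called 0 of 29407 (0.0%), with 1998 at an unadjusted p under 0.05 and 150 calls under normexp.

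The levels of each probe were compared between tissues after normalization between arrays, in limma with tissue and treatment as terms over the 8 pools. L22655 had log2 levels of 10.72 in the control and 11.82 in the LO pool of the small intestine, and of 12.12 and 11.98 in the spleen. M87784 had 7.79 and 8.76 in the intestinal pools, against 8.88 and 8.91 in those of the spleen. AJ250889 had 8.14 and 9.01, against 9.26 and 9.23. For these 3 probes the control intestine lay lowest, and the LO intestine lay below both spleen pools by less than the control intestine did.

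Z93368 had log2 levels of 6.54 and 7.35 in the intestinal pools, against 6.61 and 6.42 in those of the spleen, so its LO intestine pool was the highest of the 4. L17078 had 10.47 and 9.74 against 10.13 and 9.98, with the spleen values between both intestine values. M87788 had 8.28 and 7.46 against 8.53 and 8.29, with the LO intestine pool lowest. None of the 6 passed the adjusted p of 0.05 between spleen and small intestine, where 16038 of 30592 probes (52.4%) did. The fit had a common LO term for all tissues, so the intestinal LO/control difference used for selection entered its residual. For the 6 probes the SD was 0.52 to 0.78 over the intestinal pools, against 0.02 to 0.17 over the spleen pools. Missing the threshold was thus partly built in by the selection. The spleen was higher by 0.77 ± 0.29 (SE) for L22655 (95% interval from 0.06 to 1.49, limma adjusted p = 0.0680), and by 0.67 ± 0.24 for AJ250889 (from 0.07 to 1.27, adjusted p = 0.0633). The difference was 0.62 ± 0.28 for M87784 (from -0.08 to 1.32, adjusted p = 0.119) and 0.54 ± 0.19 for M87788 (from 0.06 to 1.02, adjusted p = 0.0628). It was -0.05 ± 0.28 for L17078 (from -0.73 to 0.64, adjusted p = 0.912) and -0.43 ± 0.31 for Z93368 (from -1.20 to 0.34, adjusted p = 0.308). These intervals are wide, and a level difference that missed the threshold was not shown to be absent. In the control pools alone, whose intestinal values were part of the ratio used for selection, the spleen minus small intestine difference was 1.39 for L22655, 1.12 for AJ250889, 1.09 for M87784, 0.24 for M87788, 0.0704 for Z93368 and -0.34 for L17078, with none called. Without normalization between arrays AJ250889 and M87788 passed, with adjusted p-values of 0.0304 and 0.0203, and under normexp L22655 and AJ250889 passed, with 0.0315 and 0.0182.

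Between the liver and the small intestine limma called 64.9% of all probes, in either direction. The 6 probes passed the filter on dim signals through the small intestine and the spleen, so their lower liver level is given as a description, with no p. Since the liver spots were not well above background, the difference is a bound: mean log2 level in the bright tissue against, for each liver channel, the higher of the lowest signal well above background and the spot's own. On this scale L22655 was at least 76.3-fold higher in the small intestine and at least 131-fold higher in the spleen than in the liver. L17078 was at least 33.9-fold and 32.8-fold higher, AJ250889 at least 11.7-fold and 18.7-fold, and M87784 at least 9.55-fold and 14.7-fold. The bounds were 7.23-fold and 10.5-fold for M87788 and 3.80-fold and 2.83-fold for Z93368. Of the probes called between liver and small intestine, 48.4% were higher in the liver, and 31.1% without normalization between arrays.

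**Figure D3:**
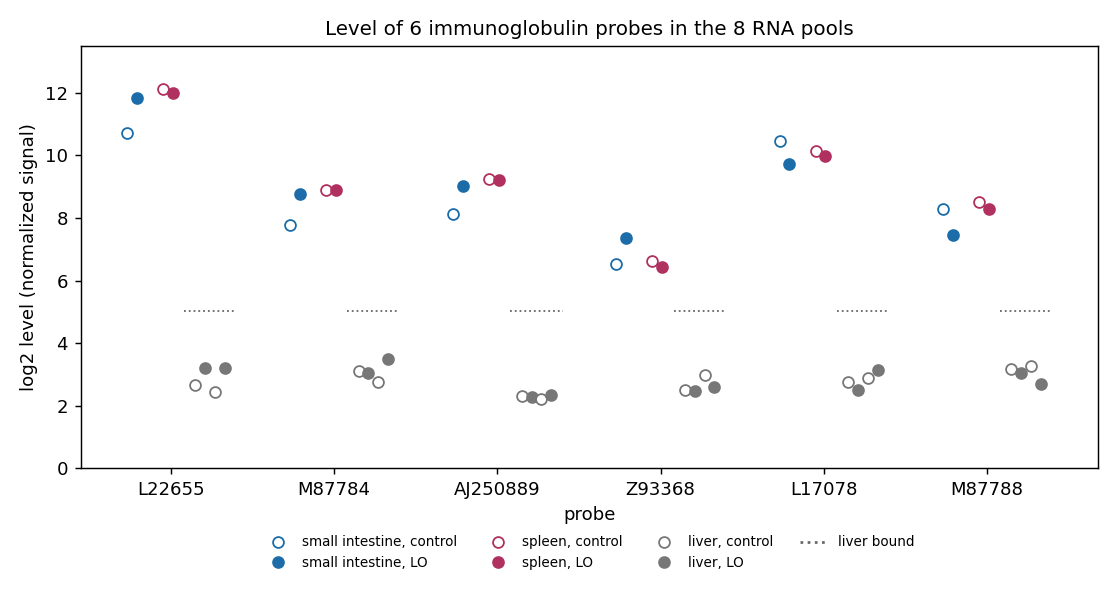
Log2 level of the 6 probes in each of the 8 RNA pools after normalization between arrays (open symbols, control; filled symbols, LO), with a dotted line at the lowest level that the liver arrays could resolve. Small intestine and spleen symbols lie close together and well over the line, while all liver symbols lie under it.

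Other immunoglobulin probes were followed from the descriptions in the same lists. They were Z93370 and Z93350 (variable regions, the former with 2 probes), DQ402472 (the gamma2a constant region), XM_345745 and XM_345746 (similar to a gamma-2a heavy chain and to a heavy chain variable region). The study chose these entries on the same arrays, so neither their direction nor their passing of the fold is independent evidence. No feature matched AF217588, a kappa variable region. In the small intestine all 6 probes were lower with LO on both arrays (13.7% of all bright features were). Of the 6, 4 passed the fold downward, against 0.713% of all features past it in either direction. Those 4 were dim. XM_345746 gave 44.1 and 48.5 in the control and 13.9 and 14.6 in the LO channels, where LO was not well above background, so it was at least 2.33-fold lower with LO. Z93370 gave mean log2 values of -0.94 ± 0.31 and -1.04 ± 0.26 on its 2 probes, and Z93350 gave -0.66 ± 0.08, not well above background in any channel.

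Both gamma-2a entries gave less signal with LO on each intestinal array. DQ402472 gave 40.3 and 37.2 in the control and 35.8 and 24.8 in the LO channels of the small intestine, a mean log2 of -0.38 ± 0.29. In the spleen it gave 385 and 347 in the control and 672 and 480 in the LO channels, ratios of 1.75 and 1.39, which passed the fold. Its log2 LO/control there was 0.64 ± 0.23 (SE, limma adjusted p = 1.0), and normexp called it. XM_345745 gave 1313 and 1016 in the control and 870 and 816 in the LO channels of the small intestine, a mean of -0.46 ± 0.20 (SD), and 0.03 ± 0.03 in the spleen. It passed the fold downward in liver pool 2, on spots not well above background. One probe of Z93370 also passed downward in the spleen, at -0.81 ± 0.30. All 5 probes of the list without XM_345746 passed the fold in a tissue, which their choice from the study's lists of changed genes largely fixed. Of all features 0.551% to 1.25% passed in a pool pair. Only 1 of the 5 passed on bright spots (DQ402472 in the spleen), and limma called 0 of those tested in any tissue.

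A further 13 probes carried GenBank numbers within 25 of a listed immunoglobulin entry, with no name in the sources used here. In both the small intestine and the spleen 10 of them were well above background in all channels. In the small intestine none of the 10 passed the fold, 6 were higher and 3 lower with LO on both arrays (15.2% and 13.7% of all bright features were), and their mean log2 values ran from -0.50 to 0.39 with a median of 0.14. AF217598 was the highest of them at 0.39 ± 0.07, followed by AF217587 at 0.33 ± 0.06, and Z93359 the lowest at -0.50 ± 0.08. In the spleen 8 of the 10 were lower and 0 higher on both arrays, with a median of -0.16 and a range from -0.25 to -0.03. Among all 24326 bright spleen features, 4455 (18.3%) were lower and 3894 were higher on both arrays. In the intestine both directions therefore occurred among the 10 unnamed probes too, while in the spleen the means of these 10 were all below 0. AF217598 also passed the fold upward in liver pool 2, at 0.88, on spots not well above background.

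**Figure D4:**
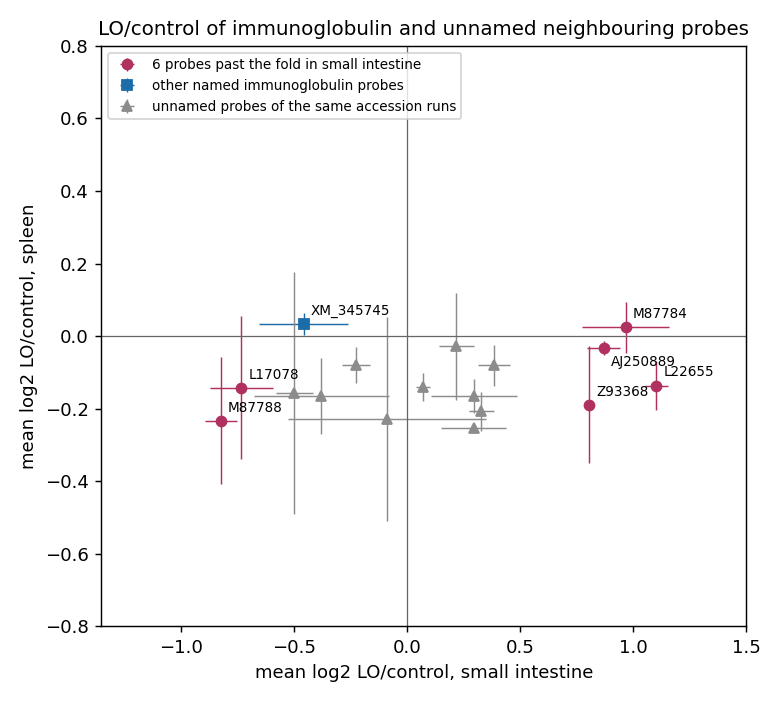
Mean log2 LO/control in the small intestine (x axis) against the spleen (y axis) for immunoglobulin probes, and unnamed probes of neighbouring GenBank numbers, well above background in all channels of both tissues, with bars for the SD between the 2 arrays. The 6 selected probes lie far from 0 on the x axis, by selection, on both sides, whereas on the y axis they and the unnamed probes lie between -0.25 and 0.02.

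The pattern of levels over the 8 pools was set beside that of all other probes, by Pearson's r of the log2 level. For L22655 the most alike were *Spon1* (r = 0.999), ENSRNOT00000025026 (0.999) and *Cd63* (0.998). ENSRNOT00000025026, *Gata3* and *Spon1* led for AJ250889, with r between 0.998 and 0.999. For M87784 they were a probe without accession, AF217598 and *Cav3*, each with r = 0.998, and for Z93368 XM_345756 (0.999), Z93354 (0.997) and *Ttc9c* (0.996). *Mvp*, ENSRNOT00000040121 and *Pcsk1* came first for L17078 (each 0.999), and XM_227573, BC086332 and XM_215883 for M87788 (each 0.996). The 8 points share 4 pairs of arrays, and the gap between the liver and the other tissues sets most of r.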

How the data were processed

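Each array was a 4×44K rat array with Cy3 and Cy5, read with Agilent Feature Extraction 11.0.1.1. The authors deposited for each feature a log10 ratio of Cy5 to Cy3 after background subtraction and LOWESS within the array. The deposited p-value of each ratio comes from the error model of 1 array. The deposited signal intensity values are linear and background-subtracted, with dim ones replaced by a surrogate, and median pixel intensity values before correction were deposited too. Flags of the deposited files, which are other values, mark spots as well above background, non-uniform or saturated. The series matrix held the same log10 ratio except where that was 0.

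Log10 ratios were turned to log2 LO/control. The 34 features flagged as non-uniform were left out, copies of a probe averaged, and ratios of exactly 1 treated as missing in fits. The arrays of a dye swap were averaged to 1 value per pool pair, and limma (version 3.58.1, R 4.3.3) fitted a term per tissue over 4 pairs, whose only replication was between liver pools. The dim filter asked for 1 channel well above background on at least 2 arrays (30592 of 40979, all 6 immunoglobulin probes among them). Levels were compared in limma on 8 pools after A-value quantile normalization. P-values were Benjamini-Hochberg adjusted over all probes tested. For a marker gene with several probes the brightest was used. The probes, gene lists and tests were chosen with earlier results of these data known. The genes named were the 6 probes, other immunoglobulin probes past the fold or of a constant region, B cell and plasma cell genes listed by name, and the 3 probes most like each member. Other genes of the lists, and the unnamed probes, were named after their values were seen. Symbols came from a RefSeq table by accession.

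Replicates share replicate numbers that mark dye orientation. Deviations of same-numbered arrays correlated between pool pairs at a mean of 0.659 (from 0.591 to 0.833), and the dye swap average removes that effect. Alternatives were normexp (offset 50) with loess, the series matrix, no flag filter, symmetric limits, error model P under 0.01, bright features only, single dye orientations, arrays as separate values with and without a replicate block, exact ratios kept, other filters on dim probes, single liver pools, control pools alone and no normalization between arrays. The pool fit was tested on simulated data, where it recovered most changed probes but, for the smaller of the changes, also called more unchanged ones than its threshold implies. Most simulated probes had a residual degree of freedom, whereas the selected immunoglobulin probes had none. The simulated spread also varied less between probes than the fitted one, so this recovery does not carry over to the selected probes. Error model P and the fits on single arrays or channels reflect the spread between arrays of the same RNA. Tables came from pandas 2.3.3 and numpy 2.4.6 under Python 3.11.15, and plots from matplotlib 3.10.9. The number of arrays limits the precision.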

Additional observations from a re-analysis of the deposited data

Results flagged for a closer look

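For 5 immunoglobulin probes and 5 unnamed probes of neighbouring GenBank numbers, both small intestine arrays moved one way and both spleen arrays the other. The share of all features that did so was not counted, so this count does not set these probes apart. For AJ250889 and XM_345745 the spleen values were near 0. The difference between the tissues was not tested, and for L22655, AJ250889 and Z93368 the direction in the small intestine was fixed by their selection. The mean log2 LO/control of the small intestine exceeded that of the spleen by 1.24 for L22655 (1.103 against -0.14), by 0.99 for Z93368 (0.81 against -0.19) and by 0.90 for AJ250889 (0.87 against -0.03). Among the unnamed probes the gap was 0.55 for M87786, 0.54 for AF217587, 0.47 for AF217598, 0.46 for Z93354 and 0.21 for L17080. In the opposite direction, the gamma2a constant region probe DQ402472 gave a difference of -1.01 (-0.38 against 0.64) and XM_345745 one of -0.49 (-0.46 against 0.03).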

How the results depend on the processing

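Under normexp 3 of the 6 probes passed the fold in the small intestine. Under the other alternatives 6 did, which their selection on these ratios largely fixed. In the spleen 0 passed under any setting. With 1 dye orientation alone, between 1 and 2 probes passed in liver pool 1 and between 1 and 4 in liver pool 2, where 27.7% to 28.6% and 29.1% to 31.2% of all features did, and 8 of the B cell and plasma cell genes passed in a tissue. Of the other immunoglobulin probes 1 passed the fold under normexp, 1 among bright features and 0 with an error model P under 0.01. In the reported setting 5 passed, and 6 with XM_345746 added after seeing the data, counts largely fixed by the choice from the study's lists. Limma called 2 of these other probes under normexp (DQ402472 in the spleen and XM_345745 in the small intestine). For the level in spleen against small intestine, 2 of the 6 passed without normalization between arrays, 2 under normexp and 1 with liver pool 2 alone.

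With the replicate block as a term over 8 arrays, limma called 0 of the 6 for LO/control in spleen and liver, as without it, and over 16 channel values with the replicate block 1 (AJ250889) passed for the level in spleen against small intestine. Single liver pools were fitted on arrays as separate values, since averaged pairs would leave no residual degree of freedom. Signs turned for M87784 in the spleen (from -0.0250 without replicate 1 to 0.0735 without replicate 2), for the spleen minus small intestine level of Z93368 in control pools only (0.0704) and for that of L17078 without normalization between arrays (0.0355). Of 48 alternative values of the level in spleen minus small intestine, 40 kept direction and side of the threshold, 6 passed it and 2 changed sign. Ratios of spots near background, all of the liver ones among them, are the least precise.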
